A study of Homo sapiens with 9 samples.

Results

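The genes described here are 8 carriers, chaperones and exchangers of small anions at the cell membrane, chosen by symbol: the monocarboxylate carriers SLC16A1, SLC16A3 and SLC16A7, their chaperones BSG and EMB, and the anion exchangers SLC26A2, SLC26A6 and SLC26A11. They are 8 of the 23727 genes in the count table, and all 8 were among the 15273 genes with enough counts to test. RNA was sequenced from cells that the growth protocol names as LN229, an established human glioblastoma line (the source label spells it LN299), kept in medium with 17 mM glucose, 10% serum and glutamine at 2 mM. The groups were untreated cells at 0 h, cells given 500 µM sodium formate for 8 h, and cells given the same dose for 24 h, with 3 libraries in each. All untreated libraries belong to 0 h, so formate and time in culture cannot be told apart. The labels do not say whether replicates came from separate cultures, so the p-values measure only the spread between these libraries, which may be technical.

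Monocarboxylate carriers of the SLC16 family move lactate, pyruvate and related acids across the membrane together with a proton. SLC16A1 (MCT1) is widely expressed, SLC16A7 (MCT2) binds its substrates tightly, and SLC16A3 (MCT4) is the lactate exporter of highly glycolytic cells. They reach the cell surface with a chaperone of the immunoglobulin superfamily: basigin, encoded by BSG, serves SLC16A1 and SLC16A3, and embigin, encoded by EMB, can serve SLC16A7. The SLC26 proteins exchange anions. SLC26A2 carries sulfate, SLC26A6 exchanges chloride for oxalate, bicarbonate or formate, and SLC26A11 is a sodium-independent sulfate carrier.

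The libraries held between 22222298 and 25848242 counts, and 3 counts in a library correspond to 0.116 to 0.141 CPM, the count scaled to a common library size with TMM factors. Replicate 1 of 0 h and replicate 1 of 8 h stood apart from the rest: their scores on the first principal component were -23.5 and -21.6, against -3.41 to -0.80 for the other libraries of 0 h and 8 h and 9.56 to 25.0 for those of 24 h. For SLC26A2 and SLC16A7, and for some of the other named genes, values without these libraries are given beside the result or in the closing section. Estimates given without such a value may also depend on them. Of the 8 glioma and neural progenitor markers, all were in the table, and GFAP, the defining astrocyte filament, was below 1 CPM in every library. The summed level of that list was 6284 to 8635 CPM at 0 h, 6417 to 7351 at 8 h and 5359 to 6209 at 24 h. Most of it was VIM, at 4903 ± 1197 CPM at 0 h and 3554 ± 363 at 24 h (SD, n = 3). Of the 7 tested, 3 had a fitted change above 0 at 24 h against 0 h and 4 below. The only 1 to pass was S100B, from 130 ± 46.2 to 340 ± 53.6 CPM (log2 1.38, edgeR adjusted p = 0.0460), where 4.25% of all genes did. That call was lost in 8 of 28 alternative fits. Over fits without the block that each left out 1 library, the change ran from 1.13 to 1.67. Of the 12 markers of other cell types, 10 were in the table and 7 were below 1 CPM in every library. That list summed to 9.85 to 15.6 CPM at 0 h, 8.90 to 15.9 at 8 h and 23.6 to 29.8 at 24 h, mostly from the neuronal gene SNAP25, at 11.2 ± 3.33 CPM (SD, n = 3) at 0 h and 23.8 ± 2.75 at 24 h. Of the 4 tested, 3 had a fitted change above 0 at 24 h against 0 h and 1 below. The 2 that passed were SNAP25 (log2 1.09, edgeR adjusted p = 0.0356) and the low endothelial gene VWF (1.60, 0.0304), beside 4.25% of all genes. These calls were lost in 7 and 5 of 28 alternative fits. The part of these markers in the results was not tested. In bulk RNA, fewer cells of a type and less RNA per cell cannot be told apart.

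SLC26A2 and SLC16A7 were the members whose 24 h libraries all lay above all 0 h libraries, and the stretches before their start sites are shown for that reason. SLC26A2 (ENSG00000155850) lies on the plus strand at chr5:149960737-149993455, and SLC16A7 (ENSG00000118596) on the plus strand at chr12:59596067-59789855 (GENCODE 29, GRCh38). The 250 bases before the RefSeq start site, from the GRCh38.p14 table, are chr5:149960508-149960757 for SLC26A2 and chr12:59595779-59596028 for SLC16A7. They read 5′ to 3′ on the plus strand, with the GGGCGG box and the CACGTG element in capitals.
SLC26A2: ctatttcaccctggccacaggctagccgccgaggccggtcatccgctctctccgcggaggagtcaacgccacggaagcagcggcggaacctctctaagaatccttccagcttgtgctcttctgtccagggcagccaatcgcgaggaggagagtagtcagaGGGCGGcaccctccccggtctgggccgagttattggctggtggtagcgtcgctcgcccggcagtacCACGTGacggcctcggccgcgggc
SLC16A7: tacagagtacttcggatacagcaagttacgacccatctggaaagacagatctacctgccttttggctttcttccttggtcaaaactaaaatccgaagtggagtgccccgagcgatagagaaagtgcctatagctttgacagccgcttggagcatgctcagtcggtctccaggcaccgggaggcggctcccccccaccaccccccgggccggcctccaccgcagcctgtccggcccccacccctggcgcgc
In windows from 250 bases before to 50 after the start site, searched on both strands, SLC26A2 held GGGCGG starting at -90 and CACGTG starting at -24, which contains 2 overlapping matches to ACGTG. Neither window of SLC16A7 held any of these motifs. Of 35116 promoters of that table, 45% held the GGGCGG box, 7.26% the CACGTG element and 21.4% the ACGTG core. A match is only a description of the letters in the window.

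Compared per kilobase of merged exons, BSG had the highest level, with a mean of 119 CPM per kilobase over the 9 libraries (range 109 to 143), followed by SLC26A2 at 88.2 (31.2 to 125). These ranges overlap. SLC16A1 stood next at 21.2 CPM per kilobase (20.2 to 23.2), below the lowest SLC26A2 library. SLC26A11 at 6.14 (5.58 to 6.52) and SLC26A6 at 5.99 (4.48 to 7.49) overlapped, and SLC16A3 at 3.61 (3.25 to 4.04), SLC16A7 at 2.82 (1.41 to 3.77) and EMB at 2.54 (2.21 to 2.91) were lowest. SLC16A7 overlapped both of its neighbours in that order. The order of the lower genes depends on the length used. With the median coding transcript, 1969 bases for SLC16A7 against 13665 merged exon bases, SLC16A7 moved up to a mean of 19.6 CPM per kilobase, and SLC16A3 to 15.8, above SLC26A6 at 14.9, SLC26A11 at 10.6 and EMB at 8.27. BSG at 281, SLC26A2 at 94.0 and SLC16A1 at 27.2 kept the top places by mean. The ranges of SLC16A1 (25.9 to 29.8) and SLC16A7 (9.77 to 26.2) overlapped with that length.

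After 24 h of formate, no member passed an adjusted p of 0.05 against 0 h by edgeR's quasi-likelihood test, where 4.25% of all tested genes did, 2.47% in the higher and 1.77% in the lower direction. DESeq2 and limma-voom also called 0 of 8, and 1 of 8, SLC16A7, had an unadjusted p under 0.05, against 26.4% of all genes. The fitted log2 change was above 0 for 6 members and below 0 for 2, with a median of 0.022 over the 8 against 0.01 over all tested genes. With the replicate number as a block, 2 of 8 passed, SLC26A2 and SLC16A7, both higher, beside 24.1% of all genes in either direction and 12.6% in the higher direction. The 24 h and 0 h libraries did not overlap for 2 of 8, again SLC26A2 and SLC16A7, where 30.3% of all genes did not overlap and 15.9% were higher without overlap. The 2 of 8 are close to the shares for either direction, and the same 2 genes make up both counts. They are above the shares for the higher direction, but with only 8 members an excess was not tested. EdgeR called 0 of 8 without replicate 1 of 0 h and of 8 h, and with the block and no library numbered 1 it called 2 of 8. The shares of all genes in these fits are not given here, so these counts are not read as a result about the members.

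**Figure D1:**
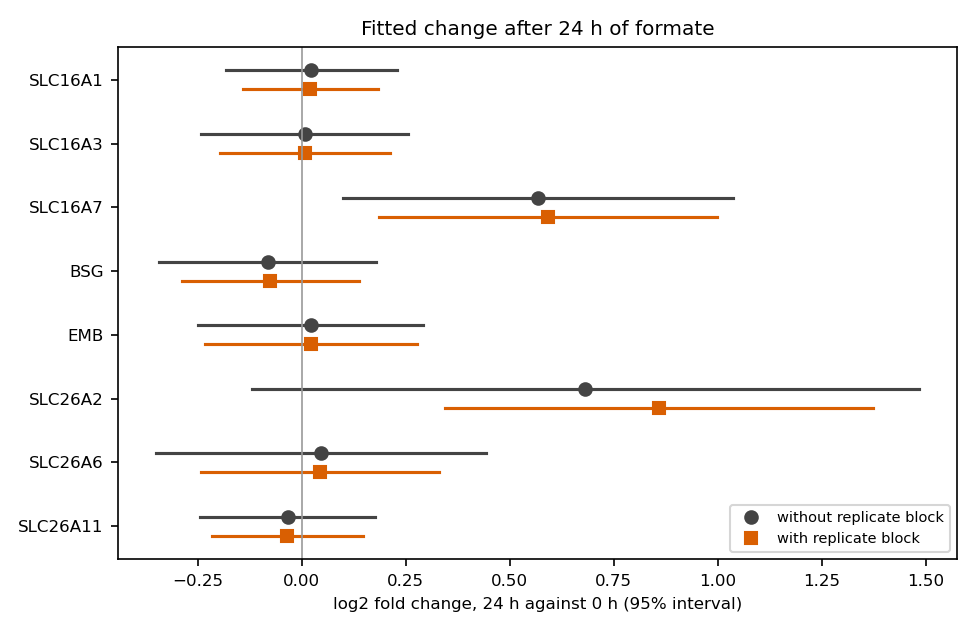
Fitted log2 fold change at 24 h against 0 h (horizontal axis) for the 8 genes, with 95% confidence intervals, without and with the replicate number as a block. SLC26A2 at 0.68 without the block and 0.86 with it, and SLC16A7 at 0.57 and 0.59, lie to the right of the other 6 genes. The intervals of those 6 include 0 in both fits, and that of SLC26A2 includes 0 without the block.

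SLC16A1 encodes the widespread carrier MCT1 (ENSG00000155380, chr1:112911847-112957013, minus strand). Its levels in replicates 1, 2 and 3 were 115, 111 and 107 CPM at 0 h, 122, 113 and 108 at 8 h, and 123, 108 and 107 at 24 h. The 3 groups overlapped throughout, and the highest of the 9 values was 1.15 times the lowest. The fitted change at 24 h was 0.023 on the log2 scale (SE 0.094, edgeR adjusted p = 0.892), with a 95% interval of -0.18 to 0.23. An annotated pseudogene copy, SLC16A1P1, could share reads with it, and the antisense gene SLC16A1-AS1 covers 3.29% of its exon bases.

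SLC16A3 encodes the lactate exporter MCT4 (ENSG00000141526, chr17:82228397-82261129, plus strand). It was measured at 36.1, 32.7 and 29.8 CPM at 0 h, 33.1, 32.3 and 29.5 at 8 h, and 36.4, 29.2 and 33.5 at 24 h. The groups overlapped, and the log2 difference at 24 h was 0.01 (95% interval -0.24 to 0.26, edgeR adjusted p = 0.972). CSNK1D, at 207 to 223 CPM, overlaps 5.36% of the SLC16A3 exon bases on the opposite strand. The strand setting of the counts is not given in the sources used here, so some of these reads may belong to CSNK1D.

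SLC16A7 encodes the high-affinity carrier MCT2. Its libraries held 19.2, 39.5 and 35.9 CPM at 0 h, 38.4, 39.7 and 33.8 at 8 h, and 48.6, 51.5 and 40.3 at 24 h. Every 24 h value exceeded every value of 0 h and 8 h, while replicate 1 of 0 h lay far below the other 8 libraries. Means were 31.5 ± 10.8 CPM at 0 h, 37.3 ± 3.12 at 8 h and 46.8 ± 5.79 at 24 h (SD, n = 3). The fitted rise at 24 h was 0.57 on the log2 scale (SE 0.21, 95% interval 0.10 to 1.04), or 1.48-fold, with an edgeR adjusted p of 0.132. With the replicate block it was 0.59 (0.19 to 0.997, edgeR adjusted p = 0.0389). Within replicate numbers 1, 2 and 3 the 24 h level was 2.52, 1.31 and 1.12 times the 0 h level. Without replicate 1 of 0 h and of 8 h, a check chosen after seeing the data, the change was 0.31 (edgeR adjusted p = 0.153). With the block and without all libraries numbered 1, also chosen after seeing the data, it was 0.28 (edgeR adjusted p = 0.0228). The blocked call was lost on leaving out replicate 1, 2 or 3 of 24 h (edgeR adjusted p = 0.170, 0.109 and 0.0525) or replicate 1 or 3 of 8 h (0.0550 and 0.0632). Without replicate 1 of 0 h, the blocked estimate was 0.26 and still passed (edgeR adjusted p = 0.0245).

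BSG encodes basigin (ENSG00000172270, chr19:571277-583493, plus strand), the chaperone of SLC16A1 and SLC16A3. Its counts corresponded to 541, 446 and 419 CPM at 0 h, 465, 448 and 429 at 8 h, and 441, 412 and 475 at 24 h. The groups overlapped, with replicate 1 of 0 h the highest of all 9. At 24 h the log2 difference from 0 h was -0.08 (95% interval -0.34 to 0.18, edgeR adjusted p = 0.678). EMB encodes embigin (ENSG00000170571, chr5:50396192-50443248, minus strand), which can serve SLC16A7. It stood at 11.6, 12.8 and 14.0 CPM at 0 h, 14.7, 13.0 and 15.3 at 8 h, and 14.0, 12.9 and 12.1 at 24 h. These ranges overlapped as well, and the difference at 24 h was 0.022 (-0.25 to 0.29, edgeR adjusted p = 0.923). A pseudogene copy of EMB, EMBP1, is annotated and could share its reads.

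**Figure D2:**
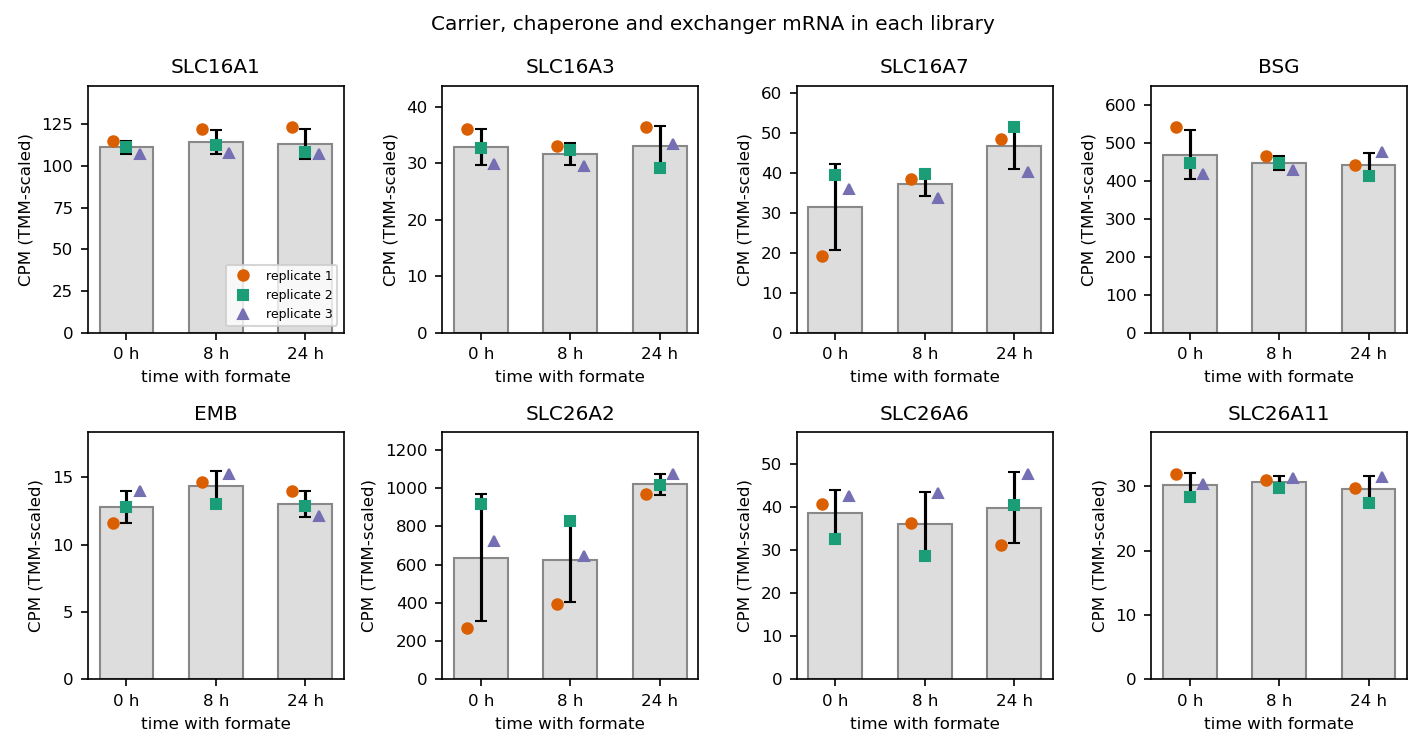
Level of each of the 8 genes in each library, in TMM-scaled CPM, with 1 panel per gene, the 3 groups along the horizontal axis and 1 point per library. The 24 h points of SLC16A7 (40.3 to 51.5) and SLC26A2 (968 to 1076) lie above all points of the other groups, and the groups of the other 6 genes overlap.

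SLC26A2 encodes the sulfate carrier whose loss causes diastrophic dysplasia, a disorder of cartilage. It was the member with the widest range. Its libraries held 268, 918 and 721 CPM at 0 h, 393, 828 and 647 at 8 h, and 968, 1016 and 1076 at 24 h. Replicate 1 of 0 h and of 8 h were the lowest of the 9, and the 24 h libraries, all above every other library, lay close together. Means were 636 ± 333 CPM at 0 h, 623 ± 218 at 8 h and 1020 ± 54.4 at 24 h (SD, n = 3). The fitted rise of 0.68 at 24 h (SE 0.37, 95% interval -0.12 to 1.48), 1.60-fold, had an edgeR adjusted p of 0.251. With the replicate block it was 0.86 (0.34 to 1.37, edgeR adjusted p = 0.0224). The ratio of 24 h to 0 h was 3.61 for number 1, 1.11 for number 2 and 1.49 for number 3. Without replicate 1 of 0 h alone the unblocked estimate was 0.30 (edgeR adjusted p = 0.539), and without replicate 2 of 0 h it was 1.04 (0.113). Without replicate 1 of both 0 h and 8 h it was 0.32 (edgeR adjusted p = 0.211), and with the block and no library numbered 1 it was 0.37 (0.0188). The blocked call was lost without replicate 1 or 3 of 24 h (edgeR adjusted p = 0.0833 and 0.0502) or replicate 1 of 8 h (0.0552). TIGD6, at 6.85 to 9.29 CPM, overlaps 2.86% of the SLC26A2 exon bases on the opposite strand.

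**Figure D3:**
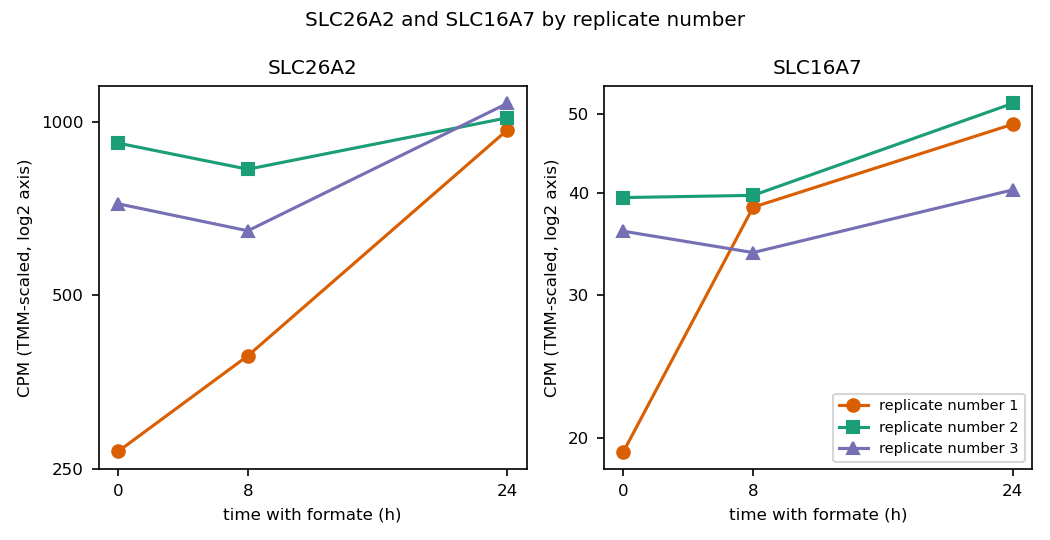
SLC26A2 (left) and SLC16A7 (right) in TMM-scaled CPM on a log2 axis against hours with formate, with a line joining the libraries that carry the same replicate number. Number 1 starts at 268 CPM for SLC26A2 and 19.2 CPM for SLC16A7 at 0 h, below numbers 2 and 3, and the 3 lines are closest at 24 h for SLC26A2.

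SLC26A6 encodes the exchanger of chloride for oxalate, bicarbonate or formate (ENSG00000225697, chr3:48625723-48635493, minus strand). Among the members it is the one known to carry formate in exchange for chloride. Its values were 40.8, 32.5 and 42.4 CPM at 0 h, 36.3, 28.6 and 43.3 at 8 h, and 31.3, 40.5 and 47.8 at 24 h. The groups overlapped, and replicate 3 was the highest in each. The difference at 24 h was 0.05 on the log2 scale (95% interval -0.35 to 0.44, edgeR adjusted p = 0.887). SLC26A11 encodes a sodium-independent sulfate carrier (ENSG00000181045, chr17:80219699-80253500, plus strand). It was steady, at 32.0, 28.3 and 30.4 CPM at 0 h, 30.9, 29.7 and 31.4 at 8 h, and 29.7, 27.4 and 31.4 at 24 h. Its groups overlapped, and the difference at 24 h was -0.03 (-0.24 to 0.18, edgeR adjusted p = 0.841).

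At 8 h of formate, the members were close to their 0 h levels. By edgeR's quasi-likelihood test 0 of 8 passed, as did 0% of all tested genes, and DESeq2 and limma-voom also called 0 members. At an unadjusted p under 0.05 there were 0 members, against 79 of all genes (0.517%). The log2 differences ran from -0.10 for SLC26A6 to 0.24 for SLC16A7 (95% interval -0.23 to 0.71), with 4 members above 0 and 4 below, and every edgeR adjusted p was 0.9999. No member separated the groups, where 3.31% of all genes did. For SLC26A2 the difference was -0.03 (-0.83 to 0.77), an interval that includes the 0.68 fitted at 24 h. With the replicate block it was 0.038 (-0.47 to 0.54), an interval that overlaps the blocked 0.34 to 1.37 at 24 h. Setting these intervals side by side is no test of 24 h against 8 h, since both rest on the same 0 h libraries. SLC16A7 at 8 h was 2.00 times its 0 h level in number 1, 1.01 times in number 2 and 0.941 times in number 3, so the increase in its mean rests on number 1. It differed by -0.04 without replicate 1 of 0 h and of 8 h.

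From 8 h to 24 h, edgeR called 0 of 8 members beside 4.56% of all genes, with 0 members under an unadjusted p of 0.05, against 22.8% of all genes, and 0 called by DESeq2 or limma-voom. SLC26A2 and SLC16A7 again had higher 24 h libraries without overlap, 2 of 8 where 18.2% of all genes were higher without overlap and 34.3% did not overlap in either direction. The SLC26A2 difference was 0.71 (95% interval -0.09 to 1.51, edgeR adjusted p = 0.272), and the 24 h level was 2.46, 1.23 and 1.66 times the 8 h level in numbers 1, 2 and 3. Replicate 1 of 0 h belongs to neither group compared, and enters through the filter, the scaling, the shared spread and the adjustment. Leaving it out gave an edgeR adjusted p of 0.0460 for SLC26A2. The difference was 0.47 without replicate 1 of both 0 h and 8 h (edgeR adjusted p = 0.0638). For SLC16A7 the difference was 0.33 (-0.14 to 0.79, edgeR adjusted p = 0.387) and the ratios were 1.26, 1.30 and 1.19. EMB differed by -0.14 (adjusted p = 0.528) and SLC26A6 by 0.14 (adjusted p = 0.667). A test of any difference among the 3 groups called 0 of 8, against 3.64% of all genes. At an unadjusted p under 0.05 there were 0 members, against 20.4% of all genes. The smallest edgeR adjusted p among members was 0.269, for SLC16A7. These comparisons share libraries with each other.

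The balance between carriers was followed per library as a log2 ratio of levels per kilobase of merged exons. The level of each ratio depends on that length. SLC16A3 and SLC16A1 averaged 3.61 and 21.2 CPM per kilobase with it, but 15.8 and 27.2 with the median coding transcript. Differences between groups in SLC16A3 to SLC16A1 do not depend on it, while the weight of each carrier in the BSG ratio does. SLC16A3 to SLC16A1, the exporter of glycolytic cells relative to the widespread carrier, was -2.52 ± 0.088 at 0 h, -2.61 ± 0.045 at 8 h and -2.54 ± 0.11 at 24 h (SD, n = 3). At 24 h against 0 h it differed by -0.01 (exact two-sided permutation p = 0.8, adjusted 0.8). BSG relative to the sum of the 3 carriers was 2.19 ± 0.18, 2.09 ± 0.033 and 2.04 ± 0.16, a difference of -0.15 at 24 h (exact two-sided permutation p = 0.4, adjusted 0.72). The difference was -0.05 without replicate 1 of 0 h, which had the highest ratio, -0.09 without replicate 1 of 24 h and -0.24 without replicate 3 of 24 h. The remaining comparisons of the 6 in all gave exact permutation p-values from 0.2 to 0.6. With 3 libraries against 3 the smallest p this test can give is 0.1. No ratio could therefore pass 0.05 in this design.

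SLC26A2 varied most between replicates of a group. Its standard deviation within groups was 0.63 on the log2 CPM scale, and 0.421% of the 10918 genes with a mean of at least 5 CPM had a larger one. SLC16A7 followed with 0.35 (5.53% larger) and SLC26A6 with 0.28 (13.0% larger). The other members lay below the median of 0.161 for those genes: SLC16A3 and BSG at 0.13, EMB at 0.12, SLC16A1 at 0.089 and SLC26A11 at 0.080. SLC26A2 had the highest mean of the members in CPM not scaled by length, at 759. The highest of its 9 libraries was 4.01 times the lowest, against 2.68 times for SLC16A7 and 1.67 times or less for the other 6. The order changed without replicate 1 of 0 h and of 8 h, a check chosen after seeing the data. SLC26A6 then varied most, at 0.33 (2.65% larger), SLC26A2 was at 0.18 (16.4% larger) and SLC16A7 at 0.16 (23.1% larger), beside a median of 0.109.

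**Figure D4:**
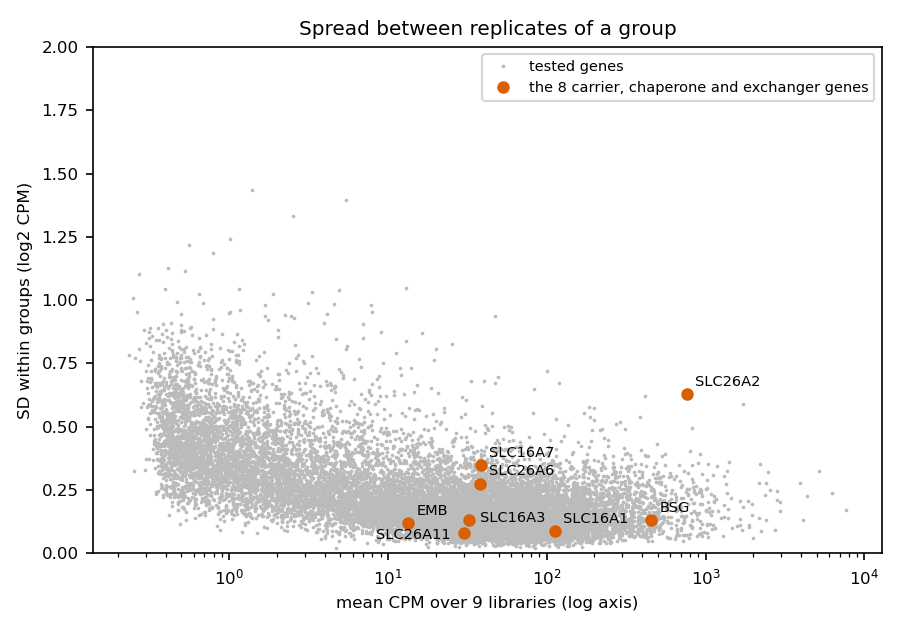
Standard deviation within groups of log2 CPM (vertical axis) against mean CPM over the 9 libraries (logarithmic horizontal axis) for all tested genes in grey and the 8 members in colour. SLC26A2 at 759 CPM and 0.63 lies above nearly all genes of similar abundance, while SLC26A11, SLC16A1, SLC16A3, EMB and BSG sit in the lower part of the cloud.

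The genes most alike to each member were taken as the 3 with the highest Pearson r of log2 CPM over the 9 libraries, among 10832 genes with a symbol and a mean of at least 5 CPM. These libraries share depth differences and group membership, and the highest of many correlations is high by selection, so r is given as a description. For SLC26A2 they were DPY19L1 (r = 0.989), CTDSP2 (0.988) and CNST (0.986), and for SLC16A7 SSH2 (0.992), RC3H2 (0.990) and ATF7IP (0.988). These patterns were common: 520 genes reached an r of 0.9 with SLC26A2 and 467 with SLC16A7. SLC26A2 and SLC16A7 were also the most alike pair of members with a positive r (0.833). Without replicate 1 of 0 h and of 8 h, r was 0.774 for that pair, 353 genes reached 0.9 with SLC26A2 and 241 with SLC16A7, and the r of the genes named here with their members was 0.865 to 0.996. BSG was most like ACTR1B, UQCR11 and TIMM8B (0.975 to 0.968), and 168 genes reached 0.9 (25 without replicate 1 of 0 h and of 8 h). SLC26A6 was most like ZNF692, FAM193B and YJU2B (0.986 to 0.969), with 38 genes at 0.9 or above (251 without them). The nearest genes were GIT1, GATAD2A and BACE1 for SLC16A1 (0.963 to 0.921), MIF4GD, DDOST and CRTAP for SLC16A3 (0.961 to 0.924), MAPKBP1, EDC4 and MAP3K5 for EMB (0.964 to 0.916), and JMJD8, TWIST2 and TCF25 for SLC26A11 (0.910 to 0.899).

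Among other carriers of the same families, 5 of 11 listed SLC16 genes were tested and none passed at 24 h against 0 h by edgeR. SLC16A4 stood at 4.86 ± 2.29 CPM at 0 h and 12.4 ± 2.85 at 24 h (SD, n = 3; log2 difference 1.34, edgeR adjusted p = 0.0566, and 0.000929 with the block). The difference was 1.03 and passed without replicate 1 of 0 h and of 8 h (edgeR adjusted p = 0.0231). The median of the 5 was 0.12, against 0.01 for all tested genes. Of 8 other SLC26 genes 1 was tested, the iodide exchanger SLC26A4 (-0.34, edgeR adjusted p = 0.560, -0.08 without replicate 2 of 24 h and -0.66 without replicate 3).

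Neither tested subunit of the mitochondrial pyruvate carrier passed (MPC2 -0.27, MPC1 -0.10, edgeR adjusted p = 0.256 and 0.588). MPC2 was -0.08 and MPC1 -0.06 without replicate 1 of 0 h, and without replicates 1 and 2 of 24 h in turn MPC1 was -0.04 and -0.16. The 3 kin and partners of basigin did not pass either: PPIA, the cyclophilin that binds it, differed by -0.32, NPTN by -0.15 and SLC3A2 by -0.13 (edgeR adjusted p = 0.224, 0.278 and 0.509). PPIA was -0.12 and SLC3A2 -0.08 without replicate 1 of 0 h. SLC3A2 was also -0.20 without replicate 3 of 0 h, and -0.22 and -0.06 without replicates 1 and 3 of 24 h in turn. Of 7 tested pH-regulating exchangers and carbonic anhydrases 0 passed without the block and 2 were higher with it, where 12.6% of all genes were: the carbonic anhydrase CA12 (0.71, edgeR adjusted p = 0.0964, and 0.0328 with the block) and the bicarbonate carrier SLC4A4 (0.57, 0.129, and 0.0405). The 2 lists of carriers and partners had medians of -0.19 and -0.15, and the pH list -0.03.

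In the list of lactate and pyruvate enzymes, 1 of 15 tested genes rose and none fell at 24 h by edgeR, where 4.25% of all genes passed, with a median of -0.0057. PDK1, a kinase that switches off pyruvate dehydrogenase, rose from 14.3 ± 1.5 to 20.3 ± 1.12 CPM (SD, n = 3; log2 0.51, edgeR adjusted p = 0.0334). Its call was lost without replicate 1 or 2 of 0 h, any replicate of 24 h, or replicate 2 or 3 of 8 h, with edgeR adjusted p-values from 0.0550 to 0.143, and in a fit of the 2 groups alone (0.0761). PDK4, a second such kinase, was at 3.51 ± 1.37 and 7.05 ± 1.86 CPM (log2 difference 0.998, edgeR adjusted p = 0.0854, and 0.00156 with the block). PDP1, a phosphatase that switches the same enzyme on, had a log2 difference of -0.44 (edgeR adjusted p = 0.109, and 0.0296 with the block). Leaving out replicate 3 of 24 h gave -0.28 for PDP1. In the blocked fit 2 of 15 rose and 1 fell, where 24.1% of all genes passed.

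Sulfate that SLC26A2 brings in is activated before it is used. Of 8 tested genes of sulfate activation and use, 1 rose and none fell at 24 h by edgeR, beside the same 4.25% of all genes, with a median of 0.00091. PAPSS2, a synthase of the activated sulfate donor, rose from 106 ± 19.4 to 175 ± 14.6 CPM (SD, n = 3; log2 0.72, SE 0.14, edgeR adjusted p = 0.0268). The call was lost without replicate 2 or 3 of 24 h (edgeR adjusted p = 0.124 and 0.143), where the change was 0.73 and 0.65. It was also lost in a fit of the 2 groups alone (edgeR adjusted p = 0.0524). Over all single libraries left out without the block, the PAPSS2 change ran from 0.56 to 0.80. TPST1 and TPST2, which transfer sulfate to tyrosines, had log2 differences of -0.39 and -0.41 (edgeR adjusted p = 0.108 and 0.115). They were -0.25 and -0.27 without replicate 1 of 0 h. Both fell with the block (edgeR adjusted p = 0.0145 and 0.0233), so that 3 of 8 passed where 24.1% of all genes did.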

How the data were processed

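The authors deposited 1 table of raw counts per Ensembl gene, 1 column to a library. The submitters' processing notes name bcl2fastq 2.20.0.422, STAR 2.7.4a and the build GRCh38. The counting program, annotation release and strand setting are not given in the sources used here. Per the labels' protocols, RNA with an integrity number above 9 went into a stranded mRNA kit. Symbols came from a table that named 19733 of 23727 genes. Coordinates came from GENCODE 29, which held 98.0% of them, and start-site sequences from RefSeq (GRCh38.p14), which had windows for 5 of the 8 members.

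Genes were filtered with filterByExpr, scaled with TMM and fitted in edgeR 4.0.16 (R 4.3.3) with 9 libraries and a separate mean for every group. Tests were two-sided quasi-likelihood tests, adjusted by Benjamini-Hochberg over 15273 genes, with a threshold of 0.05. CPM use a prior count of 2 where logged for principal components (500 genes) and correlations. The script was tested on simulated data. All 8 members are named, with up to 3 genes of smallest p from each of 9 other lists (84 entries, 71 in the table, 52 tested) and the 3 most alike genes of each member. A gene that met this rule is not reported here. The members and lists were chosen with earlier results of these data known.

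Across genes, deviations from the group means of same-numbered libraries correlated at 0.367, 0.164 and 0.251 between 0 h and 24 h (other numbers -0.40 to 0.270, the highest a pair of numbers 2 and 3), at 0.476, 0.432 and 0.414 between 0 h and 8 h, and at 0.423, 0.0367 and 0.404 between 8 h and 24 h. The numbers, taken from the titles, were used as a block beside comparisons with 0 h, where each of these was over 0.1. That rule does not establish pairing between 0 h and 24 h, since the mismatched 0.270 exceeds the matched 0.164 and 0.251. Between 8 h and 24 h number 2 was under 0.1, and the blocked fit is only an alternative. DESeq2 1.42.0, limma-voom (limma 3.58.1), other scalings and filters, the compared groups alone and leaving out each library were alternatives.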

Additional observations from a re-analysis of the deposited data

Results flagged for a closer look

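For 5 of the 60 tested members and listed genes the effects at 8 h and at 24 h, measured against the same 0 h libraries, differed by a direct test of 24 h against 8 h (edgeR quasi-likelihood), which 4.56% of all genes passed. None of the 5 was a member. SLC16A4 was higher at 24 h than at 8 h by 1.56 on the log2 scale (edgeR adjusted p = 0.0384), from 4.21 ± 1.71 to 12.4 ± 2.85 CPM (SD, n = 3). PAPSS2 was higher by 0.66 (edgeR adjusted p = 0.0301). The calcium-binding glial gene S100B was higher by 1.48 (edgeR adjusted p = 0.0382), the endothelial gene VWF by 1.49 (0.0332) and the neuronal gene SNAP25 by 1.05 (0.0389). VWF remained low, at 1.28 ± 0.274 CPM at 24 h. Each of these calls was lost without replicate 2 or 3 of 24 h, or replicate 1 or 3 of 8 h, with edgeR adjusted p-values from 0.0840 to 0.197. The calls of S100B, SNAP25 and SLC16A4 were also lost without replicate 3 of 0 h (0.0511 to 0.0524), those of SNAP25 and SLC16A4 without replicate 2 of 8 h (0.0532 and 0.0510), and those of S100B, SNAP25 and SLC16A4 with library totals alone (0.0514, 0.0562 and 0.0535). The call of VWF was lost without replicate 1 of both 0 h and 8 h (0.0504), and in the blocked fit, where it otherwise passed, without replicate 3 of 24 h or replicate 1 or 3 of 8 h (0.0624, 0.0611 and 0.0837).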

How the results depend on the processing

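Counts of members called were 0 in each comparison. The replicate block gave 2 at 24 h against 0 h, 1 at 24 h against 8 h (SLC26A2, 0.82, edgeR adjusted p = 0.0287) and 1 among the 3 groups. For 24 h against 8 h the numbers were not taken to pair the libraries. The block without all libraries numbered 1 gave 2, 3 and 2. Leaving out single libraries, with or without the block, gave 0 to 2 in each of these, and 0 at 8 h. The shares of all genes in the fits that leave out libraries are not given here, so their counts are not set against a background. Over all genes at 24 h against 0 h, 649 passed without the block, 3687 with it and 1656 in DESeq2. At 24 h against 8 h 696 passed without the block and 3130 with it, and among the 3 groups 556 and 2986. The cause was not tested.

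Small differences changed sign. SLC16A3 at 24 h against 0 h was -0.00081 in DESeq2 and -0.00091 with DESeq2 size factors. With library totals alone SLC26A11 was 0.042 at 24 h against 0 h, and SLC16A1 0.045, BSG 0.049 and SLC26A11 0.0067 at 24 h against 8 h. SLC26A2 at 8 h was 0.089 in limma-voom and 0.038 with the block. With the block and no library numbered 1, 24 h against 0 h gave SLC16A1 -0.018, BSG 0.039, EMB -0.097, SLC26A11 0.0020 and MPC1 0.016, 8 h gave SLC16A7 -0.038 and BSG 0.021, and 24 h against 8 h gave BSG 0.018. Without the first libraries of 0 h and 8 h, these were BSG 0.034, EMB -0.043 and SLC26A11 0.0082, then SLC16A7 -0.037 and BSG 0.021, then SLC16A1 0.035 and BSG 0.014.

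The ranges here join fits with and without the block, each leaving out 1 library. At 24 h against 0 h they were -0.047 to 0.054 for SLC16A1, -0.070 to 0.096 for SLC16A3, -0.18 to 0.016 for BSG, -0.098 to 0.12 for EMB, -0.12 to 0.23 for SLC26A6 and -0.087 to 0.012 for SLC26A11. At 8 h the ranges were -0.0032 to 0.090 for SLC16A1, -0.11 to 0.014 for SLC16A3, -0.045 to 0.49 for SLC16A7, -0.13 to 0.046 for BSG, -0.40 to 0.33 for SLC26A2, -0.24 to 0.046 for SLC26A6 and -0.024 to 0.060 for SLC26A11. From 8 h to 24 h they were -0.086 to 0.018 for SLC16A1, -0.021 to 0.14 for SLC16A3, -0.13 to 0.055 for BSG and -0.021 to 0.33 for SLC26A6. The difference in the SLC16A3 to SLC16A1 ratio at 24 h against 0 h, without the block, ran from -0.064 to 0.042.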
